A study of Rattus norvegicus with 10 samples.

Results

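The genes described here encode the subunits of the mitochondrial respiratory chain and ATP synthase, as measured in whole livers of 10 cirrhotic rats. Members were chosen by gene symbol alone: every gene with a probe set of a single symbol starting with Nduf, Uqcr, Cox4 to Cox8 or Atp5, or named Sdha to Sdhd, was taken, at its probe set of highest mean signal. This gave 86 genes of 14217, with 36 in complex I, 6 complex I assembly factors (the Ndufaf genes), 4 in complex II, 7 in complex III, 17 in complex IV and 16 in complex V. All rats were male Wistar rats whose cirrhosis had been brought on by breathing carbon tetrachloride (CCl4), and no healthy liver was analysed here. The vehicle group was 5 of these rats dosed weekly with the solvent, and the CVX-060 group was 5 rats dosed weekly for 4 weeks with CVX-060 at 10 mg/kg through the tail vein. CVX-060 inhibits Ang2, a ligand of the endothelial receptor Tie2, and is described as leading to Tie2 activation. Each liver gave 150 ng of total RNA to its own 3′ expression array, and the sources used here give no ages. Nothing names litters, cages or array batches, so their effects cannot be told apart from the spread between rats or from the group difference. The p-values set each result against the spread between these rats.

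The respiratory chain passes electrons from NADH (complex I) and succinate (complex II) through ubiquinone to complex III, cytochrome c and complex IV, where oxygen is reduced. Complexes I, III and IV pump protons across the inner mitochondrial membrane, and complex V, the ATP synthase, makes ATP from their return. All subunits chosen here are nuclear genes, whose proteins are imported and assembled with the few subunits encoded by mitochondrial DNA. Hepatocytes are rich in mitochondria, while the collagen-producing myofibroblasts of scar tissue use the gene Col1a1, the α1 chain of type I collagen, at a high level. In bulk tissue, fewer cells of a type and less RNA per cell cannot be told apart.

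The deposited values were log2 signals, so that a difference of 1 is a doubling of signal, and the number of arrays limits their precision. Over all genes, the first principal component held 36.2% of the variance. Far out on it lay 2 rats, vehicle rat 2 at 33.5 and CVX-060 rat 5 at 34.9, where the other 8 rats lay between -24.6 and 9.27. In the same pair, the male-biased cytochrome P450 gene Cyp2c11 was at 8.99 and 11.42, against 12.69 to 13.93 in the other rats, and the female-biased Cyp2c12 at 12.71 and 12.02, against 7.11 to 9.79. The Y-linked Eif2s3y lay between 8.99 and 9.36 in the 10 rats, and Xist between 3.97 and 4.16, below the array background in every rat. Results are given below with and without these 2 rats. The hepatocyte markers, of which 13 of 15 were measured, were all above background in every rat, the albumin gene (Alb) among them.

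Background was taken on each array as the 95th percentile of 30 probe sets for olfactory, vomeronasal and trace amine receptors, and lay at 5.50 to 5.87. By this limit 78 of the 86 genes were above background in all 10 rats and 8 in none, while 59.7% of all genes were above it in all rats. Signals of different probe sets are not levels that can be compared between genes, and they are given here only against background. The 8 genes below it were the isoform genes Cox4i2, Cox6a2, Cox6b2, Cox7a1, Cox7b2 and Cox8b, the complex I paralogue Ndufa4l2 and the pseudogene Cox6c-ps1. Cox6a2, Cox7a1 and Cox8b are known from heart and skeletal muscle, Cox6b2 from testis and Cox4i2 from lung, whereas the counterparts Cox4i1, Cox6a1, Cox6b1 and Cox8a were all above background in every rat. Cox4i1, the common isoform of subunit 4, ran from 11.90 to 12.21 across the 10 rats, and Cox4i2 from 3.95 to 4.42. Ndufa4 encodes a protein now counted with complex IV, but by its symbol it is counted here with complex I. It ran from 12.03 to 12.43. Its paralogue Ndufa4l2, known from hypoxic cells and also counted here with complex I, ran from 4.05 to 4.42. No marker on the striated muscle list was above background in all rats (0 of 8).

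The subunit genes moved together from liver to liver. Over the 78 genes above background and with the group means removed, the median Pearson correlation between 2 genes was 0.64 over 3003 pairs, and 87.9% of pairs were positive. The same median over all genes above background was 0.01, with 50.7% positive. These are descriptions over 10 arrays that all pairs share. Without the 2 rats that stood apart the median was 0.59, and 90.0% of pairs were positive. Pairs within complex I were the most alike, at a median of 0.74, or 0.71 without the 2 rats. Pairs of complex I with complex II, III, IV or V genes had medians of 0.69, 0.71, 0.67 and 0.65. The complex I assembly factors, which help build the complex but are not part of it, had a median of only 0.16 with the complex I subunits and of -0.04 among themselves. They were not alike: the median r of a single assembly factor with the other members ran from -0.58 for Ndufaf4 to 0.78 for Ndufaf8.

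The mean deviation of the 78 genes from their own 10-rat means was 0.092, -0.107, -0.083, 0.084 and 0.0079 in vehicle rats 1 to 5, and 0.078, 0.017, 0.131, -0.066 and -0.152 in CVX-060 rats 1 to 5. Both groups thus held livers with high and low values, and the range of the vehicle rats lay within that of the CVX-060 rats. Of the 78 genes, 33 had their lowest signal in CVX-060 rat 5 and 17 in vehicle rat 2, while 24 had their highest in CVX-060 rat 3 and 18 in vehicle rat 1. Complex I spanned the most, from -0.235 in CVX-060 rat 5, where 33 of its 35 genes above background lay below their own mean, to 0.171 in CVX-060 rat 3, where none did (0 of 35). Its range of 0.41 compares with 0.31 for complex II, 0.21 for complex IV and 0.20 for both complexes III and V. Whether the complexes differ in this range was not tested, as their genes share the same rats.

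**Figure D1:**
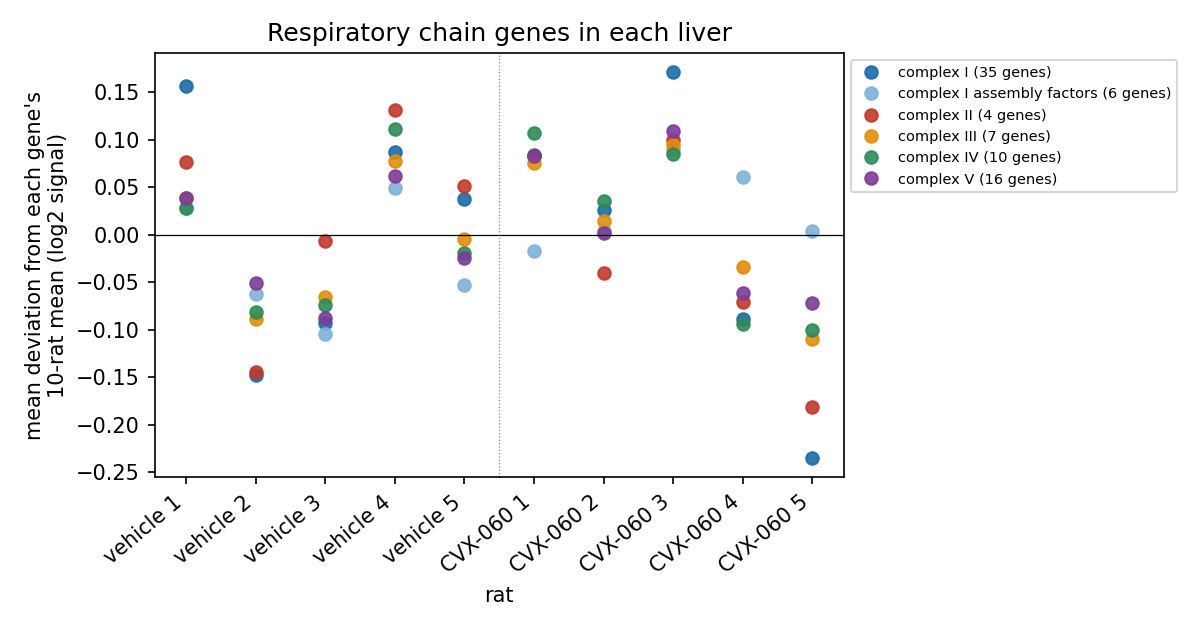
Mean deviation of the genes above background from their own 10-rat means (log2 signal, y axis) in each rat (x axis), with a point for each complex. Complex I (dark blue) lies at the extremes, at 0.171 in CVX-060 rat 3 and -0.235 in CVX-060 rat 5, and the other complexes mostly lie on the same side of 0.

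A few genes departed from the common pattern. Ndufaf4, a complex I assembly factor, had a median correlation of -0.58 with the other members. Atp5if1, the inhibitory factor that binds ATP synthase and blocks its reverse action, had -0.57. Cox7a2l, which links complex III to complex IV in supercomplexes, had -0.30. At the other end, Ndufb4 of complex I had a median of 0.82, and Atp5mg, a membrane subunit of ATP synthase, 0.81.

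Since the members moved together, their promoters were searched for the motifs of factors known for the control of nuclear mitochondrial genes. RefSeq promoters (build GRCr8, 250 bases before to 50 after the start) were matched for 78 of the 86 genes. The letters CCGGAAG, bound by ETS factors such as GABP (also called NRF2), were found on either strand in 28.2% of them and in 11.2% of the 19005 promoters of protein-coding genes. The letters GCGCANGC, a core of the NRF1 motif, were found in 28.2% and 12.2%. The letters AAGATGG, a core of the YY1 motif that also holds a start codon, were found in 25.6% and 7.58%. At least 1 of these 3 was present in 49 of the 78 (62.8%), against 26.7% of protein-coding promoters. By contrast, CCAAT was found in 34.6% and 38.4%, and TATAAA in 10.3% and 13.1%. The protein-coding promoters were not matched to those of the members in expression or base content. The promoters of 4 genes are printed, since these genes carry the relation to collagen described below. Capitals mark the letters matched by these 3 motifs on either strand, and the matches overlap in Ndufa11. Ndufs7 (chr7:10110449-10110748 on the minus strand) has a YY1 match just after its start. Ndufa11 (chr9:1637364-1637663 on the plus strand) has 4 NRF1 matches. Ndufb6 (chr5:60206103-60206402 on the minus strand) has no match to the 3 motifs. Cox7a2l (chr6:16936324-16936623 on the plus strand), whose relation to collagen had the opposite sign, has an NRF1 match before its start.
Ndufs7: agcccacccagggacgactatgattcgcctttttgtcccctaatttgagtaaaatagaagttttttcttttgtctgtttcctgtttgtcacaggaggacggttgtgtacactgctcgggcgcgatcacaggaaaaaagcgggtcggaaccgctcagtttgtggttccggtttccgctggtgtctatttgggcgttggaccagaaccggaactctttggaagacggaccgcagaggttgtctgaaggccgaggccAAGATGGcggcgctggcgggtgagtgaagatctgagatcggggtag
Ndufa11: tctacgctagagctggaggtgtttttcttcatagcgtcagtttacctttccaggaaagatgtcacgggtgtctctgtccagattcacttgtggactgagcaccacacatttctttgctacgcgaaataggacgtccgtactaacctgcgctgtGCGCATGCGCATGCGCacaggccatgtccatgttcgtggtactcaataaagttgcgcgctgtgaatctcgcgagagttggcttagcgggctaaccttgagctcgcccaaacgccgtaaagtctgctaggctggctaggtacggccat
Ndufb6: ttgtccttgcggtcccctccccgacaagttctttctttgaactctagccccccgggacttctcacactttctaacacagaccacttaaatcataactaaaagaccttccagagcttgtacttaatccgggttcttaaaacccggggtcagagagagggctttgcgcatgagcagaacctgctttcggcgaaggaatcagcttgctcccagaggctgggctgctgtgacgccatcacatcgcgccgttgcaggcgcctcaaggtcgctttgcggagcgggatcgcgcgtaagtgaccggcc
Cox7a2l: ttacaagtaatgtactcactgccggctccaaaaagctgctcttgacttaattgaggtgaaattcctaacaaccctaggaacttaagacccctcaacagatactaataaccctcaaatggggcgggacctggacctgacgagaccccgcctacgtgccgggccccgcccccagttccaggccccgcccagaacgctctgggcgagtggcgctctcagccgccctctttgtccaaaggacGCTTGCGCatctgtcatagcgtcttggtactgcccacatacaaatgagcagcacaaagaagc
A match is a description of the letters and not a site of binding. No match says only that these letters are not in this window.

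The spread between rats was small for most members. The median within-group SD was 0.145 for the 86 genes, 0.169 over all genes and 0.186 over the 639 genes at least as bright as the median member. It was 0.116 without the 2 rats that stood apart, where that of all genes was 0.151. By complex the medians were 0.163 for complex I, 0.165 for its assembly factors, 0.131 for complex II, 0.090 for complex III, 0.122 for complex IV and 0.103 for complex V. The most even gene was Atp5mc3, a gene for the rotating c subunit of ATP synthase, with an SD of 0.037 and signals from 12.86 to 12.98. Ndufs4 of complex I and Uqcrc2, a core protein of complex III, both had an SD of 0.050. The largest SD was that of Ndufv3, an accessory subunit near the NADH-binding site, at 0.372. Ndufv3 was at 11.09, 10.51, 10.91, 11.14 and 10.51 in vehicle rats 1 to 5 and at 11.01, 10.97, 11.03, 10.57 and 10.03 in CVX-060 rats 1 to 5. Its low livers were vehicle rats 2 and 5 and CVX-060 rats 4 and 5, and its groups overlapped.

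**Figure D2:**
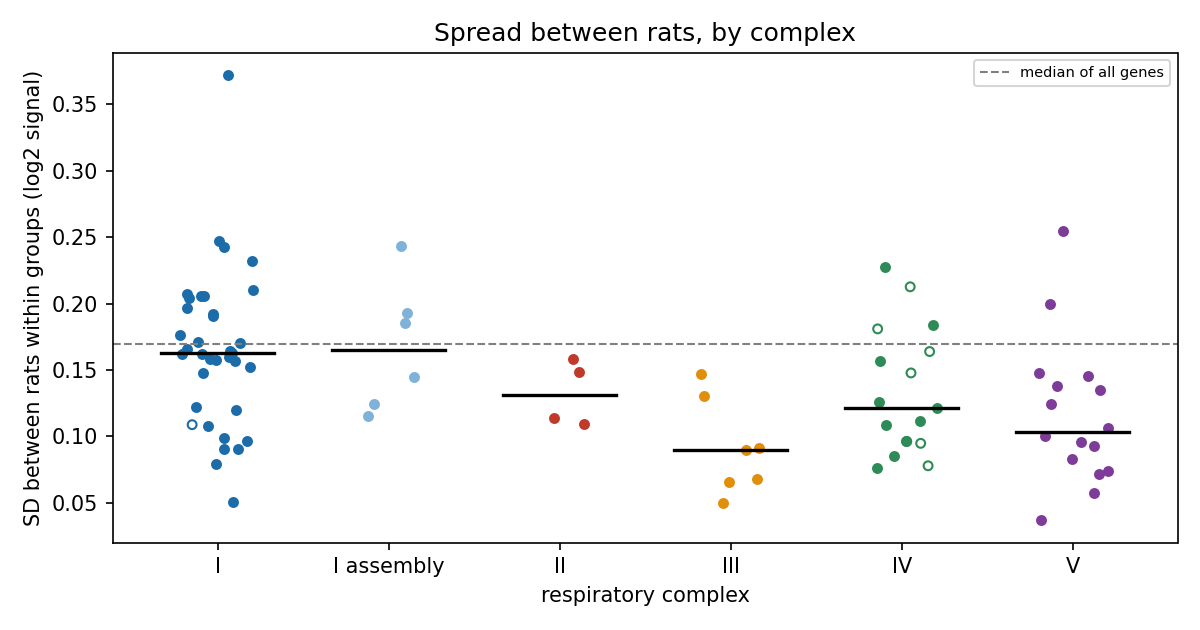
SD between rats within groups (log2 signal, y axis) for each gene by complex (x axis), with open points for genes below background, a black bar at each median and a dashed line at the median of all genes, 0.169. Most genes lie below that line, and Ndufv3 is the highest point of complex I at 0.372.

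CVX-060 was compared with vehicle to ask whether the drug changed the respiratory chain genes of cirrhotic liver. By limma with Benjamini-Hochberg adjustment over all genes, none of the 86 genes passed an adjusted p of 0.05 (0 called), and the background was 0% of the 14217 genes (0 called). At an unadjusted p under 0.05 the members had 0 genes, against 321 genes or 2.26% of all genes. The differences in log2 signal, CVX-060 minus vehicle, were above 0 for 43 members and below 0 for 43, with a median of 0.00060 beside 0.0099 over all genes. They ran from -0.12 for Sdha to 0.26 for Atp5if1 and Cox6a2. Without the 2 rats that stood apart, 0 members passed the adjusted threshold, the median was 0.021 and 32 were below 0. In those 8 rats Cox5a and Cox6a2 had an unadjusted p under 0.05 (2 members, where the background was 3.87%), and they were also the 2 members whose groups did not overlap, where the background was 2.35%. The 95% interval of a gene reached at most 0.23 from 0 at the median over the members, from 0.14 for Atp5mc3 to 0.59 for Atp5if1, and changes inside a gene's own interval were not detectable with 5 rats per group.

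In complex I, 13 of 36 genes had a higher mean with CVX-060 and 23 a lower one (median -0.0091). Ndufs1, the largest iron-sulfur subunit, had a difference of 0.067 ± 0.069 (SE), Ndufv1, which binds NADH, 0.017 ± 0.097, and Ndufb7 0.082 ± 0.094. Of the assembly factors, 5 of 6 had a higher mean (median 0.061), among them Ndufaf3 at 0.12 ± 0.12 and Ndufaf7 at 0.099 ± 0.093. In complex II, 3 of 4 had a lower mean (median -0.032). Sdha, the flavoprotein that oxidizes succinate, was at 11.23, 11.08, 11.40, 11.38 and 11.39 in vehicle rats and at 11.32, 11.19, 11.36, 11.02 and 10.97 in CVX-060 rats. Its difference of -0.12 ± 0.10 had a limma p of 0.241 and an exact permutation p of 0.254, and the 2 lowest livers both came from the CVX-060 group. Sdhb, the iron-sulfur subunit, differed by 0.012 ± 0.077.

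In complex III, 5 of 7 genes had a higher mean (median 0.029). Uqcrc1, the other core protein, differed by 0.048 ± 0.060 and the Rieske iron-sulfur protein gene Uqcrfs1 by -0.047 ± 0.060. In complex IV, 10 of 17 had a higher mean (median 0.025). Cox5a, a subunit on the matrix side of the enzyme, had 6.57, 6.15, 6.64, 6.66 and 6.65 in vehicle rats and 6.72, 6.78, 7.06, 6.80 and 6.40 in CVX-060 rats. Its difference of 0.22 ± 0.13 had an exact permutation p of 0.198, with vehicle rat 2 and CVX-060 rat 5 the lowest of their groups. Without that pair the vehicle rats lay between 6.57 and 6.66 and the CVX-060 rats between 6.72 and 7.06, a difference of 0.21 with an adjusted p of 0.9996 in limma. Cox6a2, the muscle isoform and below background in all rats, had the smallest p of the 86 genes, with a limma p of 0.062 and an exact permutation p of 0.087. Cox4i1 differed by -0.030 ± 0.076.

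In complex V, 9 of 16 genes had a higher mean (median 0.0084). Atp5f1a and Atp5f1b, the α and β subunits of the catalytic head, differed by -0.027 ± 0.071 and 0.013 ± 0.062. Atp5if1 was at 8.84, 9.29, 8.87, 9.12 and 9.03 in vehicle rats 1 to 5 and at 9.18, 8.98, 9.13, 9.39 and 9.78 in CVX-060 rats 1 to 5. CVX-060 rat 5 was the highest, and the groups overlapped between 8.98 and 9.29. The difference of 0.26 ± 0.15 had a limma p of 0.104 and an exact permutation p of 0.135.

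**Figure D3:**
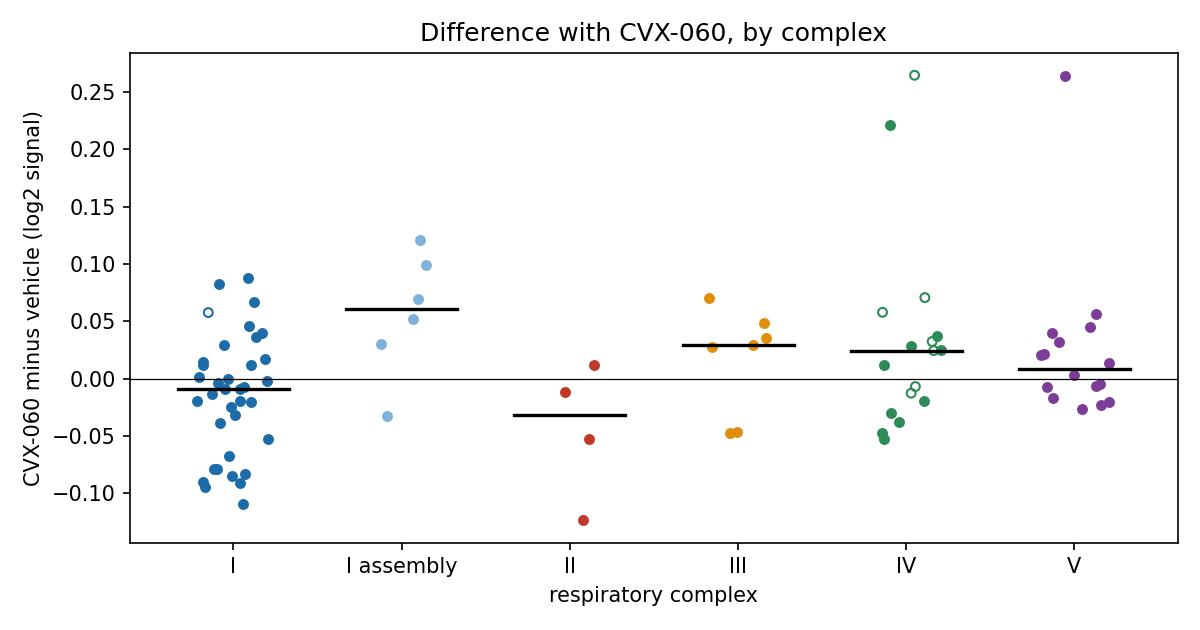
Mean log2 signal with CVX-060 less that with vehicle (y axis) for each gene by complex (x axis), with open points for genes below background and a black bar at each median. The bars lie between -0.032 for complex II and 0.061 for the complex I assembly factors, and the highest points are Atp5if1 and Cox6a2, both at 0.26.

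Second probe sets of the same genes gave some larger values. For Uqcrc2, the brighter probe set differed by -0.048 (exact permutation p = 0.183) and the dimmer by -0.23 (exact permutation p = 0.0079, the smallest that 5 against 5 allows). For Ndufv3 these were -0.11 and -0.28, the latter with an exact permutation p of 0.040. For the assembly factor Ndufaf7 they were 0.099 and 0.27 (exact permutation p = 0.032), the latter from a probe set below background in every rat. These are unadjusted values among the 96 probe sets of the 86 genes, and with every probe set tested none passed the adjusted threshold. Another 7 probe sets carried several symbols, some of them of the chain, and are not named here. Their differences lay between -0.063 and 0.14.

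Values whose means differed between the groups, with overlapping ranges, stand beside this comparison. The 3′ minus 5′ difference of the β-actin control probe sets, a sign of RNA length, was 1.35 to 1.69 in vehicle rats and 1.68 to 2.09 in CVX-060 rats. That of GAPDH was -0.048 to 0.018 and -0.016 to 0.240. All 9 sinusoidal endothelium markers measured had a higher mean with CVX-060 (median 0.32), and their mean signal ran from 8.02 to 8.64 in vehicle and from 8.41 to 8.91 in CVX-060 rats. All 8 Kupffer cell and macrophage markers measured did too (median 0.25), with 8.81 to 9.25 and 8.78 to 9.69. In limma 0 genes of either list were called. At an unadjusted p under 0.05 there were 2 endothelial and 1 Kupffer cell markers, where the background was 2.26%. All 40 cytosolic ribosome genes had a higher mean with CVX-060, and all 4 red cell markers a lower one. The part of these values in the comparison was not tested.

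The relation to Col1a1 was examined because collagen differed widely between livers of the same group. Col1a1 was at 6.29, 8.25, 7.46, 7.44 and 6.61 in vehicle rats 1 to 5 and at 7.69, 7.36, 6.69, 7.12 and 8.18 in CVX-060 rats 1 to 5. The 2 highest livers were vehicle rat 2 and CVX-060 rat 5, the pair that stood apart. Each member was fitted against Col1a1 over the 10 rats by limma, and a slope is the change in log2 signal per 1 log2 of Col1a1. The slope was negative for 75 of the 86 genes, with a median of -0.086, while over all genes 51.4% were negative and the median was -0.0051. Among the 639 bright genes 56.0% were negative. Past an adjusted p of 0.05, 8 members had a negative slope, all in complex I, where the background was 2.06% of all genes, and 1 had a positive slope, where the background was 4.93%. At an unadjusted p under 0.05, 23 members had a negative slope, where the background was 10.7%, and 5 a positive one, where it was 13.5%.

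The calls depended on which rats were included. The count of 9 went to 0 without vehicle rat 2, to 0 without CVX-060 rat 5 and to 0 without both. It was 1 without vehicle rat 1, 2 without vehicle rat 5, 2 without CVX-060 rat 3, 3 without CVX-060 rat 2 and 5 without vehicle rat 3. Of these, 1 of the 2 without vehicle rat 5 and 4 of the 5 without vehicle rat 3 were among the 9. Without the pair, 6 genes of the whole array passed, the slope was negative for 59 of the 86 genes and the median slope was -0.039. Within complex I the correlation with Col1a1 was below 0 for 30 of 36 genes, with a median of -0.41. In complexes II to V this was 3 of 4, 3 of 7, 9 of 17 and 10 of 16 genes. Over all genes it was 7332 of 14216, with a median r of -0.018.

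In complex I, 34 of 36 genes had a negative slope and the median Pearson r with Col1a1 was -0.66. Ndufs7, an iron-sulfur subunit close to the ubiquinone site, was at 10.96, 10.43, 10.63, 10.76 and 10.86 in vehicle rats 1 to 5 and at 10.84, 10.80, 10.86, 10.83 and 10.38 in CVX-060 rats 1 to 5. It was lowest in vehicle rat 2 and CVX-060 rat 5, and the other 8 rats lay between 10.63 and 10.96. Its slope was -0.26 ± 0.058 (SE, limma adjusted p = 0.0265). Over the 10 rats its Pearson r was -0.87 (permutation p = 0.00068) and its Spearman rho -0.87 (permutation p = 0.00194). The r was -0.78 without the 2 rats farthest from the median Col1a1, vehicle rats 1 and 2, and -0.72 without the pair that stood apart.

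Ndufa5, an accessory subunit of the peripheral arm, was at 9.54, 9.24, 9.27, 9.32 and 9.49 in vehicle rats and at 9.37, 9.29, 9.64, 9.44 and 9.18 in CVX-060 rats. Its high values were in the low-collagen livers vehicle rats 1 and 5 and CVX-060 rat 3. The slope was -0.20 ± 0.049 (limma adjusted p = 0.0373), the Pearson r -0.88 (permutation p = 0.00093) and the Spearman rho -0.87 (permutation p = 0.00205). The r was -0.88 without the 2 rats farthest in Col1a1 and -0.82 without the pair that stood apart.

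The other called genes were Ndufa11, Ndufb6, Ndufb10, Ndufb11 and Ndufa8, accessory subunits, and Ndufs3, a core subunit of the peripheral arm. Their slopes ran from -0.29 for Ndufa8 to -0.20 for Ndufs3, with limma adjusted p between 0.0381 and 0.0474. Their Pearson r ran from -0.86 to -0.80, with permutation p between 0.00123 and 0.00599, and their Spearman rho from -0.83 for Ndufa11 to -0.73 for Ndufs3. Without the 2 rats farthest in Col1a1 the r was -0.79 for Ndufa11 and -0.67 for Ndufa8, with the others between them. Without the pair that stood apart it was -0.73 for Ndufa11 and -0.53 for Ndufa8. Just outside the threshold were Ndufa7 and Ndufb3, with adjusted p of 0.059 and 0.064 in the same limma fit. The dimmer probe set of Ndufa7, above background in all 10 rats, had an r of -0.41, where the brighter had -0.83. The subunits that carry the first electron steps, Ndufv1 and Ndufs1, had an r of -0.44 and -0.43 and did not pass, and Ndufs4 and Ndufc2 had slopes of 0.022 and 0.0010.

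Outside complex I, only Cox7a2l passed. It was at 10.28, 10.72, 10.36, 10.46 and 10.18 in vehicle rats 1 to 5 and at 10.60, 10.40, 10.29, 10.29 and 10.59 in CVX-060 rats 1 to 5. It was highest in the high-collagen livers vehicle rat 2, CVX-060 rat 1 and CVX-060 rat 5 and lowest in vehicle rat 5. Its slope was 0.24 ± 0.050 (limma adjusted p = 0.0207), the Pearson r 0.91 (permutation p = 0.00040) and the Spearman rho 0.93 (permutation p = 0.00035). The r was 0.91 without the 2 rats farthest in Col1a1 and 0.81 without the pair that stood apart, where its slope of 0.22 had an adjusted p of 0.510 in limma.

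**Figure D4:**
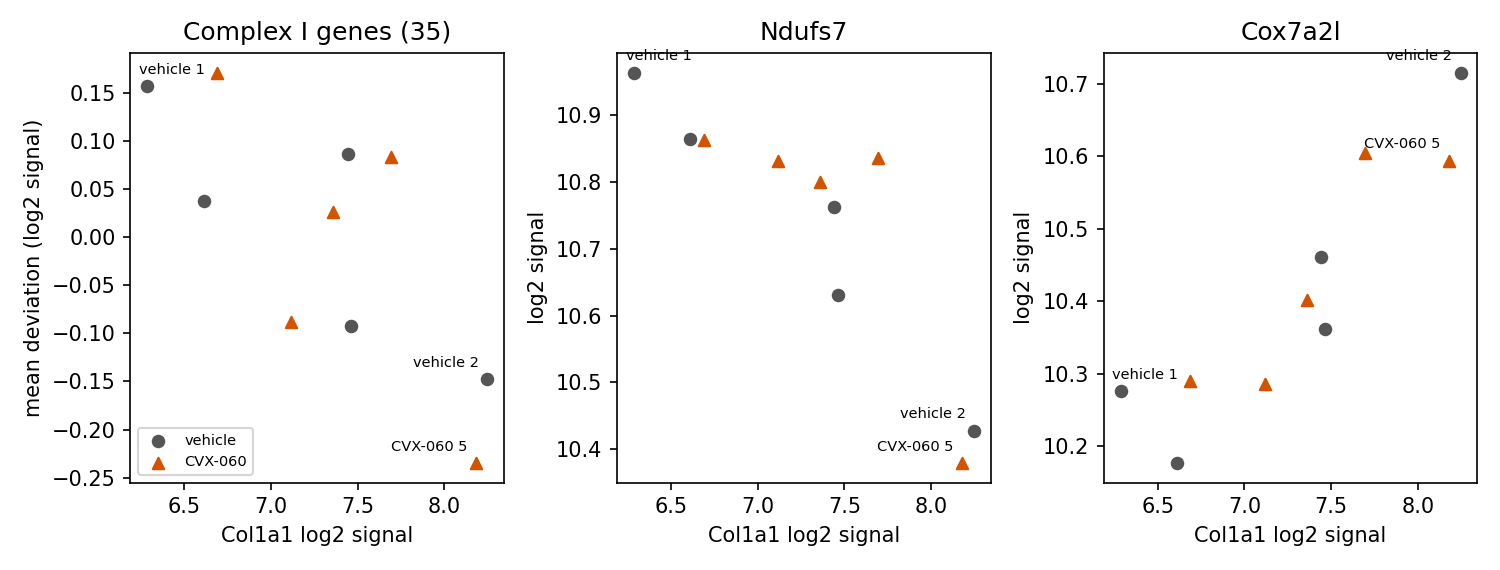
Mean deviation of 35 complex I genes, and log2 signals of Ndufs7 and Cox7a2l (y axes), against the Col1a1 log2 signal (x axes), with grey circles for vehicle and orange triangles for CVX-060 rats. Vehicle rat 2 and CVX-060 rat 5 have the highest Col1a1, the lowest Ndufs7 (10.43 and 10.38) and high Cox7a2l (10.72 and 10.59).

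In complex II all 4 slopes were negative (median r -0.53). Sdhb had the strongest relation, with a slope of -0.12 ± 0.048 that missed the threshold (limma adjusted p = 0.164), and Sdha had an r of -0.46. In complex III all 7 were negative (median r -0.37). Uqcrfs1 had an r of -0.81 over a small range, from 11.72 to 11.90, and the r was -0.91 without the pair that stood apart, while Uqcrc1 had -0.096. In complex IV, 12 of 17 were negative (median r -0.30), and Cox4i1 had 0.027. The muscle isoform Cox8b, below background throughout, had an r of 0.82 and a limma adjusted p of 0.066. In complex V, 14 of 16 were negative (median r -0.41). Atp5mk, a small membrane subunit, had an r of -0.78 (limma adjusted p = 0.156), while Atp5f1a and Atp5f1b had -0.13 and 0.40. Atp5if1 had an r of 0.62 and a slope of 0.26 ± 0.11 (limma adjusted p = 0.171), and an r of 0.27 without the pair that stood apart. Its other probe sets, above background in 1 and 0 rats, had an r of -0.67 and 0.25. Of the assembly factors 4 of 6 were negative (median r -0.20), from -0.55 for Ndufaf8 to 0.49 for Ndufaf4. The mean profile of complex I had an r of -0.75 with Col1a1, that of complex II -0.65, of complex III -0.56, of complex IV -0.34 and of complex V -0.40. Without the pair that stood apart these were -0.46, -0.17, -0.068, 0.14 and -0.10. Whether the complexes differ in this relation was not tested.

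**Figure D5:**
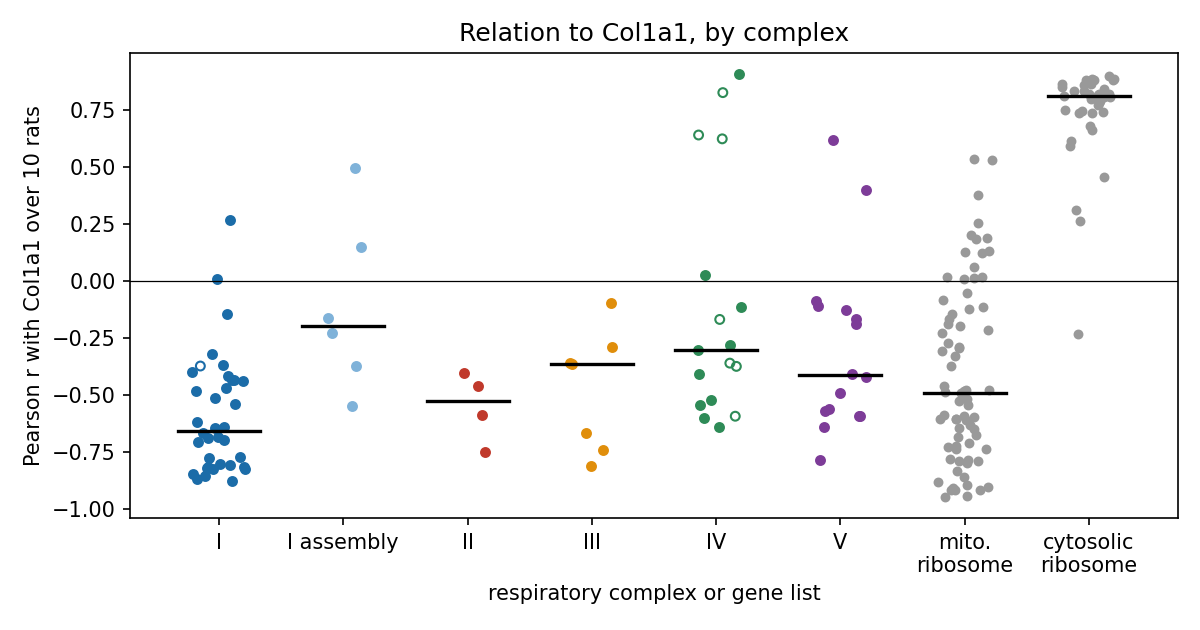
Pearson r with Col1a1 over 10 rats (y axis) for each gene by complex and for 2 ribosomal gene lists (x axis), with open points for chain genes below background and a black bar at each median. The bar of complex I is at -0.66, those of complexes II to V lie between -0.53 and -0.30, that of the mitochondrial ribosome is at -0.49 and that of the cytosolic ribosome at 0.81.

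Other genes of the organelle were set beside the chain. Of 73 mitochondrial ribosome genes, which make the subunits encoded by mitochondrial DNA, 58 had a negative slope on Col1a1 (median r -0.49) and 10 passed, all negative. They included Mrps9 (slope -0.32, limma adjusted p = 0.00691) and Mrpl28 (-0.28, 0.0137). Without the pair that stood apart, 63 of the 73 had a negative r with Col1a1, and the median r was -0.39. Of 32 assembly factors outside the symbol rule, 22 were negative and 1 passed, the complex IV factor Cox16 (slope -0.29, limma adjusted p = 0.0390). Of 13 tricarboxylic acid cycle genes, 9 were negative and 1 passed, Idh3g, a regulatory subunit of isocitrate dehydrogenase (-0.23, limma adjusted p = 0.0337). Of 11 chain genes outside the rule, 6 were negative and 1 passed in the positive direction, Slc25a4, an isoform of the ADP/ATP carrier (0.80, limma adjusted p = 0.0135). Cyc1, the cytochrome c1 gene of complex III, had an r of -0.44. The calls in these lists are those of the fit over 10 rats. Without the pair that stood apart the r was -0.57 for Cox16, -0.76 for Idh3g, 0.81 for Slc25a4 and -0.13 for Cyc1.

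Of 16 regulators of mitochondrial biogenesis, 8 were negative and none passed (0 called in limma, with 4 at an unadjusted p under 0.05). Polrmt, the mitochondrial RNA polymerase, had an r of -0.82, whereas Ppargc1a, the coactivator PGC-1α, had 0.62 and Yy1 0.77. Without the pair that stood apart these were -0.70, 0.44 and 0.69. The cytosolic ribosome ran the other way, with 39 of 40 slopes positive (median r 0.81) and 12 called. With CVX-060, the median difference was 0.073 for the cytosolic ribosome, 0.0090 for the mitochondrial ribosome, 0.017 for the outside assembly factors, 0.049 for the tricarboxylic acid cycle, -0.0089 for the outside chain genes and 0.00012 for the regulators. None of these genes was called by limma for CVX-060, with 0, 1, 1, 0, 0 and 0 genes at an unadjusted p under 0.05.

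Markers of other cells also moved with Col1a1. Of 14 stellate cell and myofibroblast markers 12 had a positive slope and 5 passed, and their mean signal ran from 6.96 to 7.93 in vehicle and from 7.09 to 7.77 in CVX-060 rats. All 7 cholangiocyte and progenitor markers were positive and 3 passed, with 5.07 to 6.15 and 5.12 to 5.98. Only 2 of the 7 were above background in all rats, and Cftr, 1 of the 3 that passed, was above it in 0 rats. Without the pair that stood apart the median r with Col1a1 was 0.56 for the stellate cell list and 0.65 for the cholangiocyte list. Of 13 hepatocyte markers, 7 were positive and 1, Apoa1, passed, with a positive slope. Their mean signal ran from 13.60 to 13.71 in vehicle and from 13.64 to 13.70 in CVX-060 rats. Their median r with Col1a1 was 0.31, or 0.40 without the pair that stood apart, and Apoa1 had 0.78 and 0.53. The mean profile of the hepatocyte markers had an r of 0.84 with Col1a1 and of -0.79 with the mean profile of the 78 chain genes. Without Apoa1, whose slope was 0.43, these were 0.41 and -0.51. With Apoa1 and without the pair, the r with the chain profile was -0.73. With the chain profile, the mean profile of the red cell markers had an r of 0.69, of the sinusoidal endothelium 0.41, of the neutrophil markers 0.42, of the stellate cell markers -0.58 and of the cholangiocyte markers -0.64. Without the pair that stood apart these were 0.76, 0.78, 0.16, -0.21 and -0.42. The Kupffer cell, T and NK cell and B and plasma cell profiles had an r of -0.29, -0.30 and -0.14 with the chain profile. Without the pair these were 0.43, 0.18 and -0.38, so that the first 2 changed sign. The cytosolic ribosome had -0.73 (-0.42 without the pair). All 8 Kupffer cell markers had positive slopes and 0 passed in limma (2 at an unadjusted p under 0.05). Without the pair, 5 of the 8 had a negative r with Col1a1, and the median r was -0.12. Slopes over the 10 rats were negative for 4 of 4 neutrophil, 3 of 10 T and NK cell and 2 of 5 B and plasma cell markers. They were also negative for 3 of 9 sinusoidal endothelium and 3 of 4 red cell markers. Of those lists, 1 T and NK cell marker passed, and 0 of 10 on that list were above background in all rats. On the stellate cell list 9 of 14 were above it in all rats. For the neutrophil, B and plasma cell and red cell lists this was 2 of 4, 1 of 5 and 1 of 4. The β-actin 3′ minus 5′ difference had an r of 0.0018 with Col1a1 and of 0.24 with the mean profile of the 78 genes, and that of GAPDH had -0.17 and 0.54. The part of cell makeup and RNA quality in the relation to Col1a1 was not tested.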

How the data were processed

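Whole-liver RNA of 10 cirrhotic rats, 5 per group, was hybridized to Affymetrix GeneChip Rat Genome arrays. After quality control and a look at principal components, the authors kept only some replicates of each treatment for their own work. Their text does not name the ones kept, and all 10 arrays were used here. The authors deposited a log2 signal for each probe set, normalized between arrays. Tools listed in the submitters' notes are R 3.4.0, limma 3.38.2 and affy 1.56.0. Background correction and summary are not given in the sources used here. Of 31099 probe sets, 57 controls, 436 with several symbols and 9780 without one were left out of the fits, which left 20826 for 14217 genes. The probe set of highest mean stood for each gene. Groups were compared, and slopes on Col1a1 fitted over all 10 rats, by lmFit and eBayes in limma 3.58.1 (R 4.3.3), adjusted by Benjamini-Hochberg over all genes. For single genes, a two-sided exact permutation test used all 252 splits, whose smallest p is 0.0079, and correlations used two-sided tests with 100000 permutations, computed for 86 relations, with the limma slope as the adjusted test. Tables and plots used matplotlib 3.10.9, scipy 1.17.1, pandas 2.3.3 and numpy 2.4.6 under Python 3.11.15. The limma steps were tested on simulated data.

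Named genes are those past an adjusted p of 0.05, the 2 of smallest p in each fit and those of largest and smallest SD in each complex, isoform pairs, and catalytic or core subunits. The other names (such as those that moved unlike or most like the rest, those just outside the threshold, second probe sets and genes of other lists) were chosen after their values were seen. The members and lists were chosen with earlier results of these data known. Alternatives were other probe set choices, leaving out genes whose mean signal was under the 40th percentile, 2 further scalings, a robust and trended variance prior, array weights, other covariates and regressors, the replicate number as a block, and rats left out.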

Additional observations from a re-analysis of the deposited data

Results flagged for a closer look

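In 94 groups of 5 rats examined for the 46 named genes and Col1a1, 3 signals lay far from the other 4 rats of their group, and chance marks about 1 in 20 groups. Cox5a was at 6.15 in vehicle rat 2, where the other vehicle rats lay between 6.57 and 6.66. Ndufa4 was at 12.03 in the same rat, against 12.35 to 12.43. Ndufs7 was at 10.38 in CVX-060 rat 5, against 10.80 to 10.86 in the other CVX-060 rats. All 3 values are the lowest of their group and come from the 2 rats that stood apart over all genes.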

How the results depend on the processing

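With CVX-060, 0 members passed the adjusted threshold under every alternative, and the median difference stayed within the spread between rats, from -0.029 to 0.033 when 1 rat was left out. Its sign changed with the rat left out, with 22 to 58 members lower. The median within-group SD ran from 0.120 to 0.148 with 1 rat left out. The median slope on Col1a1 stayed negative under every alternative, from -0.099 to -0.066 with 1 rat left out, with 71 to 78 members negative. The 9 members called for that slope did not hold. The count was 0 without vehicle rat 2 and CVX-060 rat 5 together and 0 with Col3a1 in place of Col1a1. It was also 0 without vehicle rats 1 and 2 (farthest in Col1a1). A variance prior with trend and robust gave 4, of which 3 were among the 9. Array weights gave 2, of which 2 were among the 9. The group as a covariate gave 5, of which 3 were among the 9. With 1 rat left out the count ran from 0 to 8. The 8 came without CVX-060 rat 1, and 7 of them were among the 9. The cause was not tested. The other alternatives gave 6 to 9, of which 4 of 6 after renewed quantile normalization and 5 of 6 with the other Col1a1 probe set were among the 9, and all of those under the rest. Rats with the same replicate number did not deviate together (correlations from -0.19 to 0.15). Such correlations cannot exclude that the numbers mark a shared litter, cage or batch, and no label says that they pair rats. With the replicate number as a block, 0 members were called for the slope, 0 for CVX-060, the median slope was -0.073, the median difference 0.00060 and the median SD 0.144.

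The number of arrays and signal over background limit these results. With 5 rats per group, only differences large against an SD of about 0.145 could pass, and the 8 genes below background have no level that can be told from background. The healthy livers and the scanner files were not used here.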
